A study of Homo sapiens with 6 samples.

Results

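The oncofetal RNA-binding and chromatin factors of the LIN28, HMGA and IGF2BP families, together with TRIM71, were followed at the mRNA level in A549 cells with and without the MIR21 locus. The set was defined by gene symbol alone (LIN28A, LIN28B, HMGA1, HMGA2, IGF2BP1, IGF2BP2, IGF2BP3 and TRIM71), and all 8 genes had a row among the 58174 genes of the deposited table. A549 is an established human cell line from a lung adenocarcinoma. The 6 polyA RNA-seq libraries comprised 3 of parental A549 (Ctrl) and 3 of A549 in which MIR21 had been cut out by CRISPR/Cas9 (MIR21-KO), all harvested 48 hours after seeding without further treatment. The MIR21-KO cells were raised from single sorted cells, and how many clones stood behind the 3 libraries was not given in the sources used here, so that differences between clones and the deletion cannot be told apart. The study calls the 3 samples of a group independent without saying what set them apart, and p-values measure the spread between these libraries.

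These genes are abundant in embryonic tissue. Apart from the more widely expressed HMGA1 and from IGF2BP2, they are largely silent in most adult tissues and switched on again in many tumors. LIN28A and LIN28B bind the precursors of the let-7 miRNAs and block their maturation. Mature let-7 in turn silences mRNAs whose 3' UTRs carry its seed matches, among them LIN28B, HMGA2, IGF2BP1 and TRIM71, and so forms a double-negative loop with LIN28. HMGA1 and HMGA2 are architectural chromatin proteins that bind the minor groove of AT-rich DNA. The IGF2BPs are cytoplasmic proteins that bind mRNAs and affect their stability, localization and translation. TRIM71 is a let-7-controlled ubiquitin ligase and mRNA repressor of stem cells. The question addressed here was how these mRNAs, and paralogs with many or few let-7 matches, differed between Ctrl and MIR21-KO cells.

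The let-7 family members share their seed (bases 2 to 8 from the 5' end), which is distinct from that of miR-21-5p. RefSeq mature sequences (GRCh38.p14) of let-7a, let-7g, miR-98 and miR-21 are shown to make this visible, with the seed in capitals. All 9 mature let-7 and miR-98 sequences examined had the same seed.
hsa-let-7a-5p: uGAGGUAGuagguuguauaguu
hsa-let-7g-5p: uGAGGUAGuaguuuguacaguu
hsa-miR-98-5p: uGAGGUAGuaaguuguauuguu
hsa-miR-21-5p: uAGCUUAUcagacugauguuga

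Matches to the let-7 seed were searched on the sense strand of annotated 3' UTRs as CTACCTC (7mer-m8, pairing with bases 2 to 8), as CTACCTCA (8mer, the same followed by A) or as TACCTCA without the leading C (7mer-A1), with each position counted once. Among the members, the number of matches in the 3' UTR that held most of them was 8 for TRIM71, 7 for HMGA2, 5 for LIN28B and 5 for IGF2BP1. IGF2BP2 held 2, and HMGA1, IGF2BP3 and LIN28A held 1 each. The 7 matches of HMGA2 lie in the 3003-base 3' UTR of ENST00000403681.6, whereas the longest annotated HMGA2 3' UTR, the 7421 bases of ENST00000541363.5, which ends elsewhere, held 0. For all genes, distinct matches were counted over all annotated 3' UTRs of a gene together, which gave the members the same numbers. Of the 11657 tested protein-coding genes with an annotated 3' UTR of at least 30 bases, 23.9% had at least 1 match and 0.369% had 4 or more. HMGA2 had the most of all tested genes. Matches to the miR-21-5p seed (ATAAGCT, ATAAGCTA or TAAGCTA) were found in LIN28B, with 1, and IGF2BP1, with 2, none of them an 8mer.

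The 22-base windows ending at each match are printed for the genes with the most matches among the tested members, HMGA2, LIN28B and IGF2BP1, and the first match is printed for the paralogs with few. Windows are given 5' to 3' on the mRNA strand (hg38/GRCh38, GENCODE 29), all lie in annotated 3' UTRs, and capitals mark the seed match.
HMGA2 match 1, 8mer, chr12:65963299-65963320, plus strand: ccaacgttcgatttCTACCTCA
HMGA2 match 2, 7mer-A1, chr12:65964384-65964405, plus strand: gacctgaataccactTACCTCA
HMGA2 match 3, 7mer-m8, chr12:65964534-65964555, plus strand: cccactactcaataCTACCTCt
HMGA2 match 4, 7mer-A1, chr12:65964896-65964917, plus strand: taccctccaagtctgTACCTCA
HMGA2 match 5, 7mer-m8, chr12:65964946-65964967, plus strand: tgacttgcaaagacCTACCTCc
HMGA2 match 6, 7mer-m8, chr12:65965799-65965820, plus strand: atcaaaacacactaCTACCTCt
HMGA2 match 7, 7mer-A1, chr12:65965818-65965839, plus strand: tcttaagtcccagtaTACCTCA
LIN28B match 1, 8mer, chr6:105078813-105078834, plus strand: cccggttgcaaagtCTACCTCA
LIN28B match 2, 7mer-m8, chr6:105081240-105081261, plus strand: actgatgatagtaaCTACCTCt
LIN28B match 3, 8mer, chr6:105081422-105081443, plus strand: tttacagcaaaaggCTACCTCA
LIN28B match 4, 7mer-m8, chr6:105082861-105082882, plus strand: aatgatggtgttgaCTACCTCt
LIN28B match 5, 7mer-A1, chr6:105083045-105083066, plus strand: gtgtagtatttagatTACCTCA
IGF2BP1 match 1, 8mer, chr17:49051062-49051083, plus strand: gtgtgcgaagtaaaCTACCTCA
IGF2BP1 match 2, 7mer-A1, chr17:49051080-49051101, plus strand: ctcaaggtatgaagtTACCTCA
IGF2BP1 match 3, 8mer, chr17:49053699-49053720, plus strand: agcagtgctagtaaCTACCTCA
IGF2BP1 match 4, 8mer, chr17:49054353-49054374, plus strand: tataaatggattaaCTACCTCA
IGF2BP1 match 5, 7mer-m8, chr17:49054998-49055019, plus strand: cacttttgttttatCTACCTCt
HMGA1 match 1, 7mer-m8, chr6:34245830-34245851, plus strand: cctctgttcacaaaCTACCTCt
IGF2BP2 match 1, 8mer, chr3:185644220-185644241, minus strand: acacacagaagaagCTACCTCA
IGF2BP3 match 1, 8mer, chr7:23311795-23311816, minus strand: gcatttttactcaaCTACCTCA

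Libraries held 10631667 to 14345209 reads assigned to genes. Expression is given as FPKM, reads scaled to gene length in kilobases and to library size, as deposited. The keratins KRT7, KRT8, KRT18 and KRT19 marked the cells as epithelial, with group means between 88.3 and 673.4 FPKM. EPCAM was low in both groups, with 1.19 FPKM in Ctrl and 0.695 FPKM in MIR21-KO. CDKN2A, which A549 cells lack, was listed at 0 in all 6 libraries. The 5 blood and endothelial markers (PTPRC, CD68, PECAM1, CDH5 and VWF) together reached at most 0.258 FPKM in a Ctrl library and 0.298 FPKM in a MIR21-KO library. The MIR21 row itself was listed at 0 in every library, Ctrl included, so that polyA RNA gave no check of the deletion.

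Of the 8 genes, 6 passed the filter on low values (a mean of at least 0.5 FPKM over the 6 libraries) and were tested. LIN28A and TRIM71 did not. Among the 6, 5 fell upon MIR21 deletion (LIN28B, HMGA1, HMGA2, IGF2BP2 and IGF2BP3) and 0 rose, with limma on log2(FPKM + 0.1), two-sided, at a Benjamini-Hochberg FDR under 0.01 over all 16006 genes tested. As background, 8.38% of all genes tested were lower and 7.66% were higher by the same rule (10.6% and 9.1% of protein-coding genes). HMGA2 fell the most, and IGF2BP1 did not pass the test. All 3 MIR21-KO libraries lay below all 3 Ctrl libraries for each of the 6 genes, which was the case for 25.2% of all genes tested, with the reverse for 22.8%. In bulk RNA, fewer cells expressing a gene and less RNA per cell cannot be told apart.

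Per length, HMGA1 was by far the most abundant mRNA of the set in Ctrl cells (277.5 FPKM on average), followed by IGF2BP1 (20.6 FPKM), IGF2BP3 (6.83 FPKM), IGF2BP2 (6.42 FPKM), HMGA2 (5.85 FPKM) and LIN28B (1.49 FPKM). Ctrl libraries overlapped between IGF2BP3 and IGF2BP2 and between IGF2BP2 and HMGA2, and these neighbors were not distinguished by level. In MIR21-KO cells the order by FPKM was HMGA1, IGF2BP1, IGF2BP3, IGF2BP2, LIN28B and HMGA2, without overlap between neighbors. In reads HMGA2 and LIN28B overlapped there, at 25, 33 and 36 for HMGA2 and 20, 25 and 44 for LIN28B. Both orders depend on the gene lengths used, which for HMGA2 (15403 bases) and LIN28B (6002 bases) are those of merged exons. The HMGA2 transcript with the let-7 matches has 4473 bases.

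**Figure D1:**
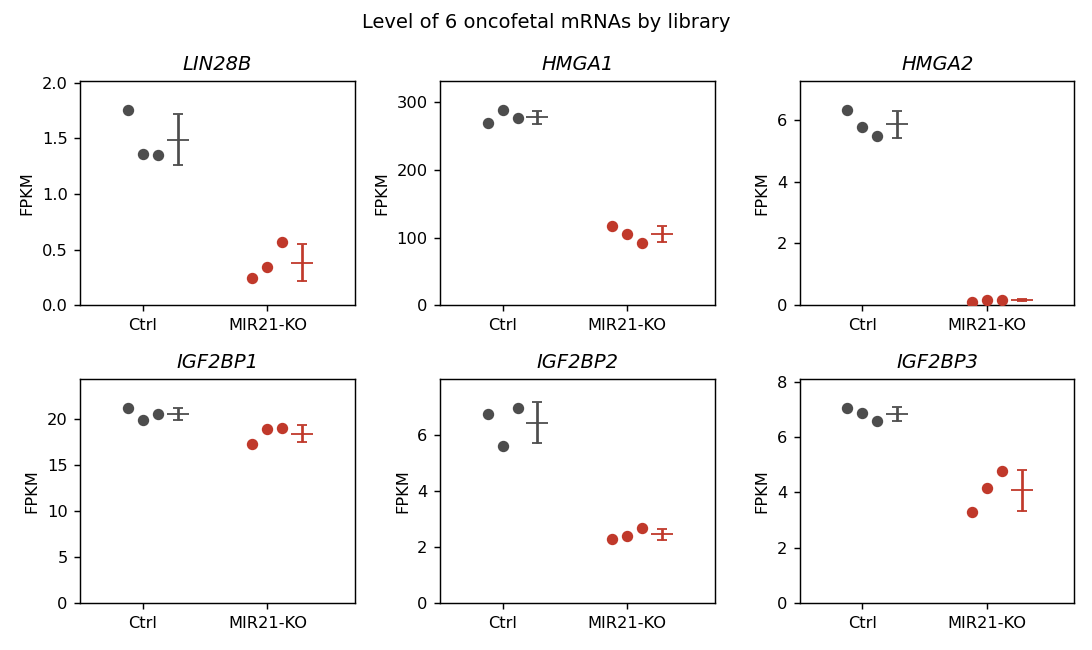
FPKM (linear axes from 0) of the 6 tested genes in each of the 3 Ctrl (grey) and 3 MIR21-KO (red) libraries; points are libraries, and the bar beside them gives the mean ± SD. HMGA2 is near 0 in all MIR21-KO libraries, whereas IGF2BP1 stays at 17.3 FPKM or more.

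LIN28B (ENSG00000187772, chr6:104936616-105083332, plus strand) encodes the nuclear and cytoplasmic inhibitor of let-7 maturation. Its level was 1.75, 1.36 and 1.35 FPKM in Ctrl 1 to 3 and 0.245, 0.340 and 0.565 FPKM in MIR21-KO 1 to 3, resting on 134, 88 and 111 reads against 20, 25 and 44. The groups did not overlap, and MIR21-KO 3 was the highest of the MIR21-KO libraries. The mean fell from 1.49 ± 0.229 to 0.383 ± 0.165 FPKM (SD, n = 3 each). The fitted log2 fold change was -1.76 ± 0.307 (SE; 95% interval -2.49 to -1.03; limma FDR = 0.00636). On the log2(FPKM + 0.1) scale folds of low genes are understated, and limma-voom on the reads behind the FPKM gave -2.02 with an FDR of 0.000545, in a fit that called 11.4% of all genes lower and 10.5% higher. The call depended on which libraries were used. It was kept without MIR21-KO 3 (FDR = 0.00276 by limma) and lost without Ctrl 1, Ctrl 2, Ctrl 3, MIR21-KO 1 or MIR21-KO 2, where the limma FDR was 0.0358, 0.0263, 0.028, 0.0106 and 0.0285, with the log2 fold change between -2.02 and -1.55 in all 6 of these fits.

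LIN28A (ENSG00000131914, chr1:26410778-26429722), the paralog expressed in pluripotent cells, had 0 reads in all 6 libraries. Counting 3 reads as the floor, this allows levels of up to 0.0547 to 0.0696 FPKM depending on the library, which covers counting error only. TRIM71 (ENSG00000206557, chr3:32818018-32897826), with 8 let-7 matches, had a single read in all, in MIR21-KO 3, against a floor of 0.0253 to 0.0321 FPKM. LIN28B was therefore the only LIN28 mRNA detectable at this depth, and no change of LIN28A or TRIM71 could be measured.

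HMGA2 (ENSG00000149948, chr12:65824131-65966295, plus strand), the embryonic member of the HMGA pair, was at 6.31, 5.78 and 5.47 FPKM in Ctrl and at 0.119, 0.175 and 0.180 FPKM in MIR21-KO. These levels stand for 1238, 957 and 1153 reads against 25, 33 and 36 reads. Ctrl libraries were close to each other, and no MIR21-KO library came near them. The mean fell from 5.85 ± 0.426 to 0.158 ± 0.0339 FPKM (SD, n = 3 each), a 37.0-fold difference of the means. The log2 fold change was -4.53 ± 0.182 (95% interval -4.97 to -4.1; limma FDR = 3.7e-05), the 10th largest fall of all genes tested. It passed the test in 17 of 17 alternative fits, at -5.22 by voom and at -2.56 with a pseudocount of 1.

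HMGA1 (ENSG00000137309, chr6:34236873-34246231, plus strand) is expressed far more widely and was the most abundant member. Its level was 268.6, 288.1 and 275.9 FPKM in Ctrl and 116.9, 105.8 and 92.7 FPKM in MIR21-KO. The 2 groups were widely separated. The mean fell from 277.5 ± 9.85 to 105.1 ± 12.1 FPKM, which limma estimated as -1.41 ± 0.105 on the log2 scale (95% interval -1.65 to -1.16; limma FDR = 0.000276). HMGA1 moved from rank 120 to rank 410 among the tested genes ordered by level, and was called in 17 of 17 alternative fits. The table also listed 8 HMGA1 pseudogenes, to which reads of the spliced mRNA could be assigned. They reached at most 2.87 FPKM in any library, and the 3 that were tested (HMGA1P3, HMGA1P4 and HMGA1P8) did not pass, with log2 fold changes of -1.06, -1.07 and -0.21, the last of which was 0.41 without MIR21-KO 1. RPSAP52, which overlaps the 5' end of HMGA2 on the opposite strand, had 1 read in all libraries together.

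IGF2BP1 (ENSG00000159217, chr17:48997412-49055650, plus strand) was the most abundant IGF2BP mRNA. It was at 21.2, 19.9 and 20.5 FPKM in Ctrl and at 17.3, 18.9 and 19 FPKM in MIR21-KO. The lowest Ctrl library lay just above the highest MIR21-KO library. The means were 20.6 ± 0.642 and 18.4 ± 0.931 FPKM, and the log2 difference of -0.16 ± 0.0716 did not pass the test (95% interval -0.33 to 0.01; limma FDR = 0.136). It was called in 0 of 17 alternative fits, with FDRs between 0.0206 and 0.327. The interval leaves room for a decrease of up to 0.33 on the log2 scale and does not overlap the intervals of the other 5 tested members, which all end at -0.41 or below.

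IGF2BP2 (ENSG00000073792, chr3:185643739-185825056, minus strand) is the family member that persists in adult tissues. It was at 6.72, 5.60 and 6.95 FPKM in Ctrl and at 2.28, 2.38 and 2.67 FPKM in MIR21-KO, with no overlap. The mean fell from 6.42 ± 0.724 to 2.44 ± 0.203 FPKM, a log2 difference of -1.36 ± 0.124 (95% interval -1.65 to -1.06; limma FDR = 0.000572), and the call was made in 17 of 17 alternative fits.

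IGF2BP3 (ENSG00000136231, chr7:23310209-23470467, minus strand), like IGF2BP1 an embryonic paralog, was at 7.06, 6.87 and 6.57 FPKM in Ctrl and at 3.30, 4.17 and 4.77 FPKM in MIR21-KO. The MIR21-KO libraries were more spread than the Ctrl libraries but all lay below them. The mean fell from 6.83 ± 0.247 to 4.08 ± 0.739 FPKM, a log2 difference of -0.75 ± 0.142 (95% interval -1.08 to -0.41; limma FDR = 0.00889). Without Ctrl 1, Ctrl 2, Ctrl 3 or MIR21-KO 2 the limma FDR was 0.0397, 0.0362, 0.0332 and 0.0363, and the call was lost.

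The MIR21-KO libraries differed among themselves by gene length. Relative to the group mean, the 3201 longest tested genes (7173 bases or more) had a median of -0.134 (log2) in MIR21-KO 1 and 0.140 in MIR21-KO 3, and the 3201 genes of 1234 to 3027 bases had 0.142 and -0.153. Of the members in these length classes, IGF2BP3 deviated by -0.28 and 0.24, HMGA2 by -0.23 and 0.13, IGF2BP1 by -0.09 and 0.05, and the shorter HMGA1 by 0.16 and -0.18, each with the signs of its class. LIN28B, of 6002 bases, deviated by -0.43 and 0.51, far more than the medians of its class (-0.028 and 0.018), and IGF2BP2, of 4735 bases, deviated by -0.09 and 0.13 against class medians of the opposite signs (0.047 and -0.062). With the trends on GC content and length removed from each library, the log2 fold changes were -1.6 for LIN28B (limma FDR = 0.00251), -0.62 for IGF2BP3 (limma FDR = 0.0012) and -1.54 for HMGA1 (limma FDR = 1.22e-05).

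**Figure D2:**
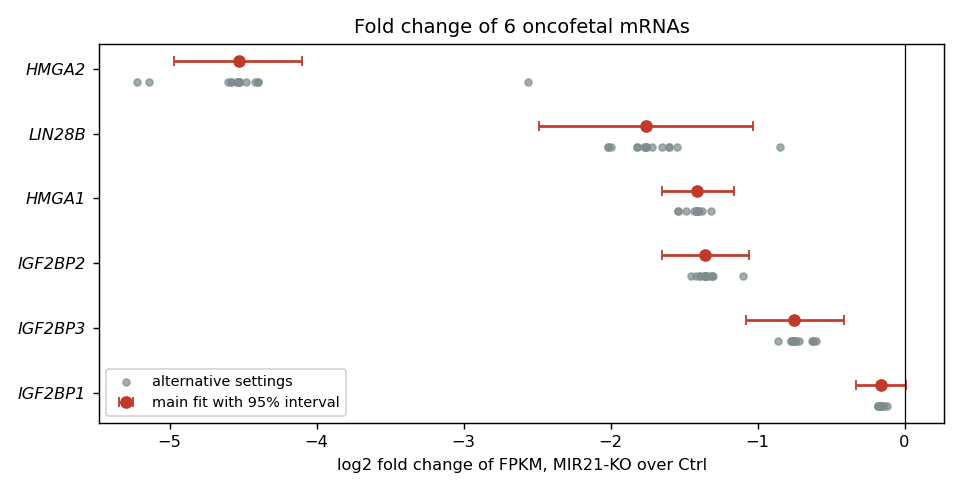
Log2 fold change (MIR21-KO over Ctrl) of the 6 tested genes; red points and bars give the main fit with its 95% interval, and grey points the alternative settings. HMGA2 is at -4.53, and the interval of IGF2BP1 alone reaches 0; the grey points nearest 0 for HMGA2 and LIN28B use a pseudocount of 1.

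Paralogs were then compared within each library, as log2 ratios of FPKM + 0.1. HMGA2 over HMGA1 was -5.39, -5.62 and -5.63 in Ctrl and -9.06, -8.59 and -8.37 in MIR21-KO. The change of this ratio was -3.13 (-1.17 with a pseudocount of 1 and -3.74 with 0.01), so HMGA2 fell further than HMGA1 in each MIR21-KO library. Without a pseudocount, HMGA1 per length was 47.6 times HMGA2 in Ctrl and 700.1 times in MIR21-KO. The FPKM of HMGA2 uses a length of 15403 bases, the merged exons of all its annotated transcripts, whereas the transcript carrying the let-7 matches has 4473 bases. Which HMGA2 transcripts the reads came from was not measured, so the ratio of levels between HMGA1 and HMGA2 depends on the length used.

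Within the IGF2BP family the balance moved toward IGF2BP1. IGF2BP1 over IGF2BP2 was 1.64, 1.81 and 1.55 (log2) in Ctrl and 2.87, 2.94 and 2.78 in MIR21-KO, a change of 1.2. IGF2BP1 over IGF2BP3 changed by 0.59 and IGF2BP3 over IGF2BP2 by 0.61. None of the 4 paralog ratios overlapped between groups, and each gave p = 0.1 in the exact permutation test (two-sided, also 0.1 after adjustment over the 4 pairs), the smallest value that 3 against 3 libraries allow, so that none could reach the usual threshold. The IGF2BP ratios are not independent, since IGF2BP1 over IGF2BP2 combines the others. Single genes did not overlap between groups for 25.2% of all genes tested as lower and 22.8% as higher. The share for ratios of other gene pairs was not measured. A LIN28B over LIN28A ratio was not formed because LIN28A had no reads. The summed IGF2BP level was 33.8 ± 1.32 FPKM in Ctrl and 24.9 ± 1.81 FPKM in MIR21-KO. IGF2BP1 made up 60.8% ± 0.621 of this sum in Ctrl and 73.9% ± 1.93 in MIR21-KO, IGF2BP2 19% ± 1.57 and 9.80% ± 0.395, and IGF2BP3 20.2% ± 0.964 and 16.3% ± 1.83 (SD, n = 3 each). The sum and shares depend on the merged-exon lengths used, 9109 bases for IGF2BP1, 4735 for IGF2BP2 and 8511 for IGF2BP3. The transcripts whose let-7 matches were counted have 8274, 3688 and 2988 bases. Which IGF2BP transcripts the reads came from was not measured.

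**Figure D3:**
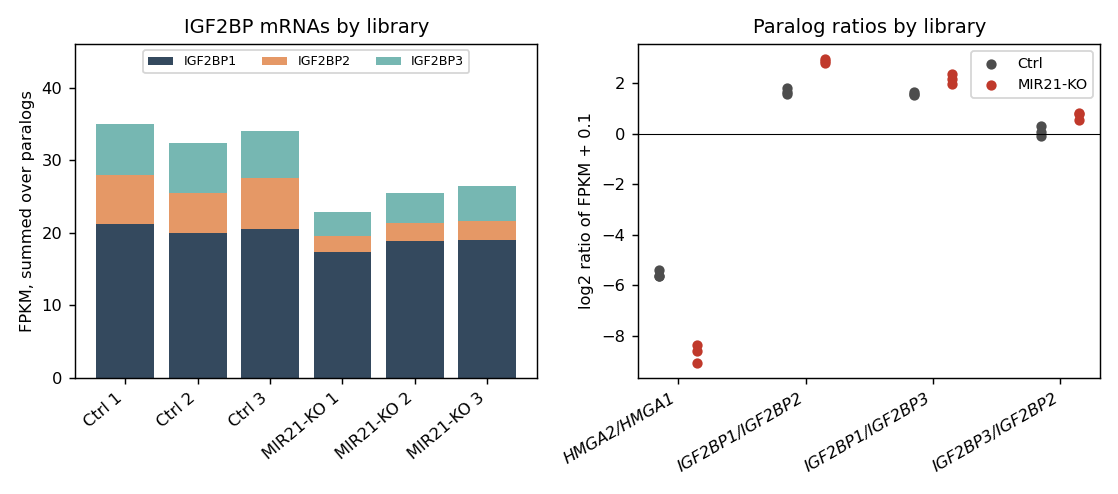
Left, FPKM of the 3 IGF2BP mRNAs stacked for each library; right, log2 ratio of FPKM + 0.1 for 4 paralog pairs, with 1 point per library (grey, Ctrl; red, MIR21-KO). The IGF2BP1 segment changes least, and HMGA2/HMGA1 lies between -9.06 and -8.37 in MIR21-KO against -5.63 to -5.39 in Ctrl.

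Across the members, the number of let-7 matches did not order the changes. HMGA2 with 7 matches fell by 4.53 on the log2 scale and LIN28B with 5 by 1.76, but IGF2BP1, also with 5 and with 3 of them 8mers, was at -0.16. HMGA1 and IGF2BP3 with 1 match and IGF2BP2 with 2 fell by 1.41, 0.75 and 1.36. Genes with like numbers of matches are given for comparison, counting distinct matches over all annotated 3' UTRs of a gene together. These classes include the members themselves, with HMGA2, LIN28B and IGF2BP1 among the genes with 5 or more matches. The shares and medians are therefore not independent of the members, and the genes called lower with 5 or more matches were members only. Of 12 tested genes with 5 or more matches, HMGA2 and LIN28B were lower, HEMK1 was higher (1.03), and 9 were not called, with a median log2 fold change of -0.23 over the 12. Of 43 genes with 4 or more, 5 were lower (HMGA2, LIN28B, CNKSR3, ANKRD52 and CCNF) and 2 were higher (HEMK1 and NTRK3). With each library left out in turn, HMGA2 and NTRK3 were called in 6 of 6 fits, CCNF in 2, LIN28B and ANKRD52 in 1, and CNKSR3 and HEMK1 in 0. That is 11.6% lower, against 10.8% of 8874 genes with no match, 10.3% of those with 1, 9.39% with 2 and 4.46% with 3. The share higher was 4.65% with 4 or more, 9.63% with no match, 7.77% with 1, 6.05% with 2 and 6.25% with 3. The median log2 fold change was -0.028 with 0 matches, -0.073 with 1, -0.078 with 2, -0.136 with 3 and -0.11 with 4 or more. The median 3' UTR lengthened from 1331 bases without a match to 6941 bases with 4 or more, and gene length moved with the libraries as described above. These counts describe genes and carry no test.

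**Figure D4:**
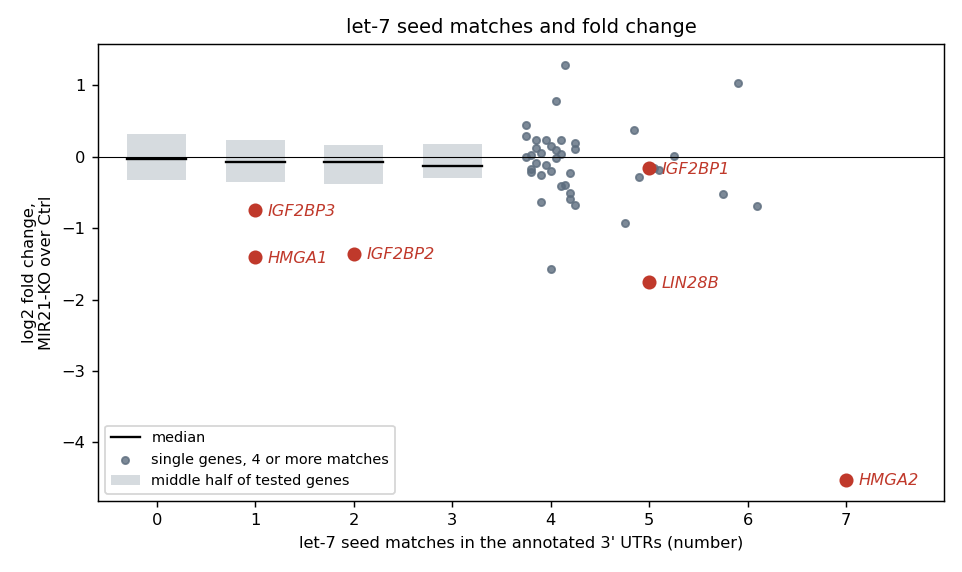
Log2 fold change (MIR21-KO over Ctrl) against the number of distinct let-7 seed matches over all annotated 3' UTRs of a gene together. Grey bars span the 25th to 75th percentile of tested protein-coding genes, and black lines are medians. Small points are single genes with 4 or more matches (spread sideways for visibility) and red points the 6 members. HMGA2 stands below all other genes with 4 or more matches, and IGF2BP1 lies among them near 0.

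The neighborhood of the members was examined for tested protein-coding genes within 1 Mb. Over all protein-coding genes tested, 10.6% were called lower and 9.1% higher by limma at an FDR under 0.01. Voom called 11.4% of all genes tested lower and 10.5% higher. Of 6 such genes around HMGA2, 0 were called in either direction by limma or voom, with 0 lower and 2 higher at an unadjusted p under 0.05 (which 22.5% of all genes tested passed as lower and 20.7% as higher), and log2 fold changes ran from -0.35 for HELB to 0.59 for TMBIM4. Next to LIN28B, BVES, a popeye-domain cAMP-binding protein gene 13.5 kb away, rose from 2.87 ± 0.356 to 11.5 ± 2.70 FPKM (log2 fold change 1.95, limma FDR = 0.000598), and its relative POPDC3 rose by 0.90, a call lost without Ctrl 1, Ctrl 3 or MIR21-KO 2. Around HMGA1, 1 of 25 genes was lower, SPDEF, an epithelial ETS factor (-3.30). SPDEF rested on 4, 0 and 3 reads in MIR21-KO 1 to 3, and its log2 fold change ran from -4.79 to -1.28 over the alternative fits. Its call was lost without any 1 of the Ctrl libraries, with a pseudocount of 0.01 and with the replicate block. Around IGF2BP2, 3 of 15 were lower (LIPH, RFC4 and TRA2B), of which TRA2B was called in 1 of the 6 fits without a library and RFC4 in 4 of 6, and around IGF2BP3, 1 of 8 was higher (IL6).

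The genes whose profile over the 6 libraries was most like that of HMGA2, by the root mean square difference of centered log2(FPKM + 0.1) among 11718 other tested protein-coding genes, were CPLX2 (0.215), FHL1 (0.217) and INHBB (0.272). CPLX2, a regulator of vesicle fusion, went from 45.0 ± 2.24 to 2.11 ± 0.167 FPKM. For LIN28B they were THSD7A (0.117), STK26 (0.160) and MAP3K21 (0.160), of which MAP3K21 went from 5.84 ± 0.710 to 1.47 ± 0.338 FPKM.

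Genes on either side of the LIN28/let-7 loop were read from lists drawn from general knowledge. Of 16 genes that process or degrade let-7 precursors or bind them, such as DROSHA, DICER1 and the uridylyl transferases ZCCHC11 and ZCCHC6, 2 were lower and 0 were higher by limma, and voom called 4 lower and 1 higher. Over all genes tested, limma called 8.38% lower and 7.66% higher, and voom 11.4% and 10.5%. At an unadjusted p under 0.05, 8 of the 16 were lower and 1 was higher, against 22.5% and 20.7% of all genes tested. A negative log2 fold change was seen in 15 of the 16, with a median of -0.31 against -0.02 over all genes tested. KHSRP, a splicing factor that promotes let-7 maturation, fell from 71.4 ± 2.47 to 53.2 ± 1.32 FPKM (-0.43, limma FDR = 0.00466). SYNCRIP, an hnRNP protein that binds miRNAs, fell from 27.0 ± 0.421 to 20.3 ± 1.23 FPKM (-0.41, limma FDR = 0.0063). Both calls were lost without any 1 of the Ctrl libraries or without MIR21-KO 2, and that of SYNCRIP also without MIR21-KO 1 and with GC and length trends removed. Of the let-7 host and hairpin genes, 5 were tested and 0 were called in either direction by limma, also 0 at an unadjusted p under 0.05, whereas voom called 1 higher. Hairpin rows held at most 14 reads in a library and do not measure mature let-7.

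Of 37 tested genes known as let-7 targets, 8 were lower and 2 were higher, against 10.6% and 9.1% of all protein-coding genes tested, with a median log2 fold change of -0.38. Cyclin D1 (CCND1), with 2 let-7 matches, was at 81.9, 75.9 and 78.1 FPKM in Ctrl and 25, 27.3 and 27.9 FPKM in MIR21-KO (-1.55 ± 0.0756, limma FDR = 6.44e-05). The phosphatase gene CDC25A, with 3 matches, went from 6.29 ± 0.234 to 3.94 ± 0.0514 FPKM (-0.66, limma FDR = 0.00189). The others that fell were CCNJ, E2F2, RRM2, DNA2, COIL and PLAGL2. CCND1, CDC25A, CCNJ, E2F2, RRM2 and DNA2 act in the cell cycle or in DNA replication. The genes that rose were ITGB3, the integrin beta-3 chain (from 1.23 ± 0.105 to 14.9 ± 2.67 FPKM, 3.48, limma FDR = 4.93e-05), and the cytokine IL6 (from 1.33 ± 0.253 to 6.40 ± 0.529 FPKM, 2.19, limma FDR = 0.000237). They held let-7 matches too, 2 for ITGB3 and 1 for IL6. The count of lower targets was 1 to 2 without any 1 of the Ctrl libraries or without MIR21-KO 2, and CCND1 was called in each of these fits, whereas CDC25A was not.

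Among 11 tested mRNAs known to be bound by IGF2BPs, 0 were lower and 1 was higher by limma, against 8.38% and 7.66% of all genes tested. By voom 2 were lower and 2 higher, against 11.4% and 10.5%. At an unadjusted p under 0.05, 3 of the 11 were lower and 2 higher, against 22.5% and 20.7% of all genes tested. SRF, a transcription factor of growth and actin genes, rose from 11.2 ± 0.424 to 16.8 ± 0.327 FPKM (0.59, limma FDR = 0.00139), a call lost without Ctrl 1, Ctrl 3 or MIR21-KO 2. MYC, the best-known IGF2BP1 client, was at 38.7 ± 2.55 FPKM in Ctrl and 39.2 ± 0.899 FPKM in MIR21-KO (0.02, limma FDR = 0.862), with the sign depending on the settings. The namesake client IGF2 was at 0.753, 0.446 and 0.759 FPKM in Ctrl and 0.0586, 0.0392 and 0.0246 FPKM in MIR21-KO, below the filter. H19, a non-coding RNA of the same imprinted locus, was at 0.417, 0.494 and 0.466 FPKM in Ctrl and 0.0520, 0.0289 and 0 FPKM in MIR21-KO. These levels rest on at most 65 reads for IGF2 and 18 for H19 in a library, and no test is given. IGF2 and H19 were singled out after their values were seen.

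Of 8 tested genes linked to HMGA2, 1 was lower and 2 were higher, against 8.38% and 7.66% of all genes tested. Cyclin A2 (CCNA2), whose promoter HMGA2 is known to activate, fell from 34.8 ± 1.07 to 23.9 ± 1.46 FPKM (-0.54, limma FDR = 0.00252), a call lost without any 1 of the Ctrl libraries or without MIR21-KO 2. The epithelial-mesenchymal transition factors SNAI1 and SNAI2, of which HMGA2 is known to promote SNAI1 expression, rose. SNAI1 was at 1.26, 1.6 and 2.08 FPKM in Ctrl and 11.2, 11.1 and 8.69 FPKM in MIR21-KO (2.60, limma FDR = 0.000295), and SNAI2 went from 4.30 ± 0.285 to 15.9 ± 0.579 FPKM (1.86, limma FDR = 4.95e-05). E-cadherin (CDH1), a gene that SNAI factors repress, went from 8.18 ± 0.584 to 2.86 ± 0.148 FPKM (-1.48, limma FDR = 0.000175). It was the only 1 of the 6 epithelial markers called, with KRT18 at -0.69, EPCAM at -0.68, KRT8 at -0.23, KRT7 at 0.10 and KRT19 at 0.29.

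Other genes of fetal tissue and tumors did not share a direction. Of 13 listed, 5 were tested, of which 2 were lower and 1 was higher, against 8.38% and 7.66% of all genes tested. The imprinted, retrotransposon-derived PEG10 was at 48.5, 41.0 and 43.2 FPKM in Ctrl and 12.7, 13.8 and 17.1 FPKM in MIR21-KO (-1.61, limma FDR = 0.000356). The zinc-finger gene PLAGL2 went from 6.55 ± 0.609 to 3.63 ± 0.320 FPKM (-0.83), a call lost without any 1 of the Ctrl libraries or without MIR21-KO 2. The growth factor midkine (MDK) rose from 7.11 ± 0.985 to 37.2 ± 8.20 FPKM (2.35, limma FDR = 0.000319).

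**Figure D5:**
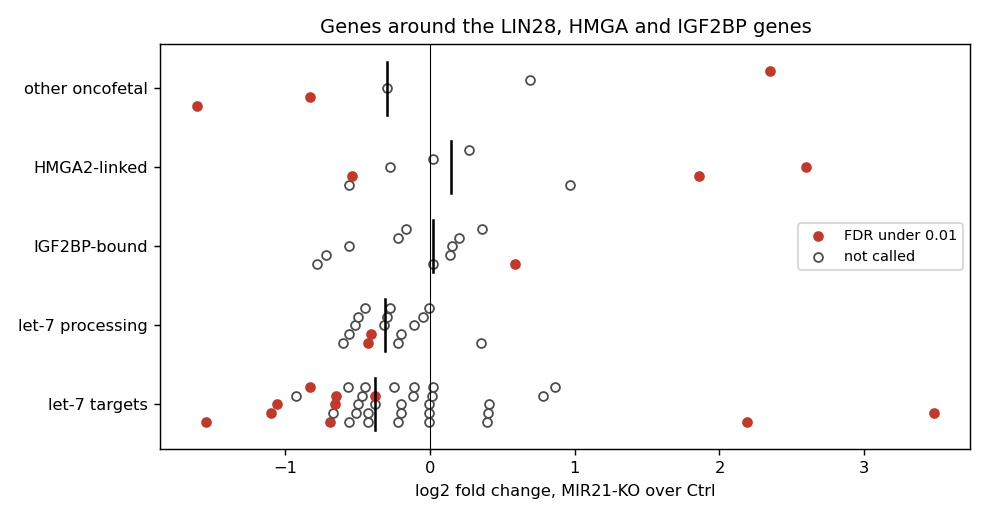
Log2 fold change (MIR21-KO over Ctrl) of the tested genes of 5 lists around the LIN28, HMGA and IGF2BP genes; each circle is a gene, filled where limma called it at an FDR under 0.01, and black lines are list medians. The let-7 target and let-7 processing lists have medians of -0.38 and -0.31, with ITGB3 at 3.48 and IL6 at 2.19 on the other side.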

How the data were processed

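PolyA RNA-seq of A549 cells was deposited as 1 table of 58174 genes with an FPKM value per library, computed by the authors from read counts, gene length and library size. The submitters' processing notes name cutadapt 1.14, HISAT2 2.1.0, SAMtools 1.5, featureCounts 1.5.3, edgeR 3.18.1 and the build hg38; the annotation is not given in the sources used here. The table also holds the authors' fold changes, p-values and FDRs, which were not used. FPKM times length was a whole multiple of 1 step per library for 100% of values (tolerance 0.01), which gave reads per gene and depth.

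Testing was restricted to genes averaging 0.5 FPKM or more over all 6 libraries and used limma 3.58.1 (R 4.3.3) on log2(FPKM + 0.1) with trend and robust fitting, two-sided, with Benjamini-Hochberg adjustment and an FDR threshold of 0.01. The script was tested on simulated data. Alternatives were other pseudocounts and filters, median-ratio scaling, plain limma, voom on the reads, a replicate block, FDR 0.05, each library left out and, chosen after seeing the data, removal of GC and length trends (lowess span 0.3). 3' UTRs came from GENCODE 29, for which 57836 of the IDs matched. The members and gene lists were chosen with earlier results of these data known.

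Genes named outside the members were, by rule, up to 4 called genes with the smallest p per list, relatives by symbol, tested protein-coding genes within 1 Mb of a called member, the 3 largest falls and 3 largest rises among called genes with 4 or more let-7 matches, and the 3 genes most like HMGA2 and LIN28B. The remaining called genes with 4 or more let-7 matches, other genes called in a list, MYC, IGF2, H19 and the markers were named outside this rule. The filter in fits without a library stayed on the mean of all 6.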

Additional observations from a re-analysis of the deposited data

How the results depend on the processing

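HMGA1, HMGA2 and IGF2BP2 were called lower and IGF2BP1 was not called in all 17 alternative fits; LIN28B was called in 8 of 16 and IGF2BP3 in 9 of 17, with the same direction in each. At a mean of at least 1 FPKM LIN28B was not tested. The count of members called lower, 5 in the main analysis, was 3 without a filter on low values, 3 with the replicate block and 3 to 5 when leaving out each library, and the count called higher stayed at 0 to 0. Over all genes, 2568 were called (1342 lower, 1226 higher). With the replicate block these were 651 (272 and 379), with GC and length trends removed 3960 (2135 lower), at an FDR of 0.05 5114 (2686 and 2428), and with 1 library left out 768 to 3400 (368 to 1801 lower, 388 to 1599 higher). Higher calls made up 47.7% of calls, 58.2% with the block and 56.6% to 57.8% without a Ctrl library. Over the 6 lists, 12 genes were lower and 6 higher, with 19 and 11 by voom, 2 lower with the block, 21 and 12 with GC and length trends removed, 28 and 11 at an FDR of 0.05, and 2 to 19 and 5 to 9 with 1 library left out. The low-count HMGA1P8, at -0.21, ranged from -0.62 to 0.41 with 1 library left out (0.41 without MIR21-KO 1). MYC, at 0.02, was at -0.04 with GC and length trends removed, also with the replicate block, and at -0.03 without Ctrl 3 and 0.07 without Ctrl 1. The causes of these shifts were not tested. The paralog ratio changes ranged from -3.28 to -2.94 for HMGA2/HMGA1, 0.49 to 0.68 for IGF2BP1/IGF2BP3 and 0.52 to 0.71 for IGF2BP3/IGF2BP2 with 1 library left out, and that of HMGA2/HMGA1 was -1.17 with a pseudocount of 1 and -3.74 with 0.01. The median of genes with 4 or more let-7 matches in the longest 3' UTR minus that of genes with none was -0.192, with -0.264 to -0.141 when leaving out 1 library and -0.081 over any annotated 3' UTR. By the longest 3' UTR, HMGA2 counted among the genes with none. Ctrl and MIR21-KO libraries of the same number did not deviate together (correlations of -0.171, -0.018 and -0.017). Whether libraries of the same number were grown or processed together is not given in the sources used here. Depth limits genes such as LIN28B, HMGA2, SPDEF, IGF2 and H19, which rest on 44 reads or fewer in every MIR21-KO library.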
